A study of Homo sapiens with 89 samples.

Results

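Genes with very long transcription units were followed across 2 human neuroblastoma cell lines in which the nuclear RNA exosome subunit EXOSC10 was depleted or MYCN was induced. A gene was included when its largest end minus its smallest start in the deposited gene models exceeded 500000 bases in hg19. Symbols that start with MIR, LINC, COL, SEMA or PLXN or end in -AS1 or -DT were left out, as were ROBO1, ROBO2, DCC, SLIT3 and UNC5D. Of 57905 genes in the models, 352 exceeded the threshold, 33 were left out by symbol, and 319 remained, 7 of them without a symbol. These 319 are called the long genes here. The rule uses gene coordinates and symbols, with no expression value in it.

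The series holds 89 samples, of which 15 polyadenylated RNA libraries in 5 groups of 3 are described. IMR-32, a MYCN-amplified neuroblastoma line of adrenergic type, carried a doxycycline-inducible short hairpin RNA: shEXOSC10 cells received 1 µg/ml doxycycline, and Control cells received none. SHEP, a neuroblastoma line of mesenchymal type without MYCN amplification, carried inducible MYCN. MYCNWT cells expressed the wild-type protein and MYCN3A cells a triple mutant described in the labels as deficient in RNA binding, both on 1 µg/ml doxycycline, and noMYCN cells received none. Doxycycline went with the hairpin or the construct in every comparison with untreated cells, so effects of the drug and of what it induced cannot be told apart. MYCNWT and MYCN3A cells both received it. Each table was scaled and tested on its own, and no test was made between the cell lines. Nothing in the labels says that replicates were separate cultures, so p-values measure the spread between these libraries, which may be technical.

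RNA polymerase II needs hours to cross a transcription unit of this size, and nearly all of what it transcribes is removed as introns. Transcription of very long genes is therefore known to be sensitive to losses of elongation factors, topoisomerases and the U1 particle that protects nascent RNA from early polyadenylation. Many very long human genes encode cell adhesion molecules, ion channels and scaffold proteins of neurons, and several lie in common fragile sites, where breaks form under replication stress. The nuclear exosome degrades RNA from its 3' end, and EXOSC10 is one of its catalytic subunits. MYCN is a transcription factor that binds DNA at E-box motifs such as CACGTG, together with its partner MAX.

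Libraries held 11638859 to 26193478 counts. EXOSC10 was at 49.0, 46.7 and 46.1 CPM (counts scaled by library size) in shEXOSC10 libraries, against 74.6, 64.0 and 67.1 CPM in Control libraries, which is -0.54 on the log2 scale (adjusted p = 2.27e-08 by the quasi-likelihood test of edgeR, adjusted by Benjamini-Hochberg). The MYCN row of the SHEP table cannot check the labels there, because it held 2, 0 and 0 counts in MYCNWT libraries, 10, 0 and 0 in MYCN3A libraries and 4, 0 and 0 in noMYCN libraries. SHEP groups are therefore the libraries labelled so. Summed markers of leukocytes, epithelium and endothelium reached at most 3.51 CPM in IMR-32 and 17.2 CPM in SHEP libraries. The 7 Schwann cell markers summed to 18.3 to 24.9 CPM in IMR-32 and to at most 4.46 CPM in SHEP libraries, with SOX10 at 0 in IMR-32. The 10 adrenergic markers summed to 1840 to 3460 CPM in IMR-32 and to 121 to 150 CPM in SHEP. The 10 mesenchymal markers summed to 7058 to 8953 CPM in SHEP and to 1120 to 1430 CPM in IMR-32.

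The long genes had a median span of 701.8 kb, against 2.763 kb over all genes, and 61 of them spanned over 1000 kb. Exons made up a median of 1.03% of the span. The median long gene had 8357 exon bases in 25 separate exon blocks, against 896 exon bases for all genes. Of the 319, RefSeq types 289 as protein coding, 7 as long noncoding and 2 as transcribed pseudogenes, and 21 were not matched. Another gene lay wholly inside 309 of them, with a median of 4 such genes. Chromosome 3 carried 37, chromosome 2 31 and chromosome 7 27. By role, 48 were grouped as synaptic and cell adhesion genes, 47 as genes of membrane traffic and metabolism, 29 as scaffolds, 24 each as transcription and signalling genes, 22 as channels and receptors, 17 as growth factor and guidance genes and 5 as RNA-binding proteins, and 103 had no role assigned. A separate list of 28 held genes of common fragile sites, across these roles.

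The longest was CNTNAP2, a neurexin-like adhesion protein that clusters potassium channels, on chr7:145813453-148118090 (hg19), at 2304.6 kb. It was followed by PTPRD, a receptor tyrosine phosphatase, at 2298.5 kb, and DMD, which encodes dystrophin, at 2241.8 kb. LSAMP, an adhesion protein of the IgLON family, spanned 2194.9 kb, DLG2, a postsynaptic scaffold, 2172.9 kb, and CSMD1, a complement-regulating membrane protein, 2059.6 kb. The gene models set the threshold sharply: AFF2 (500054 bases), KCNAB1 (501055) and PPFIA2 (501287) were the shortest included, and MBD5 (497225), CACNA2D1 (497354) and DIAPH3 (498404) the longest excluded. In IMR-32, PPFIA2 averaged 15.3 CPM in shEXOSC10 and 11.2 CPM in Control libraries, and AFF2 0.931 CPM in shEXOSC10 and 1.29 CPM in Control libraries. Just outside, CACNA2D1 averaged 73.6 CPM in shEXOSC10 and 72.6 CPM in Control libraries, and DIAPH3 18.7 CPM in shEXOSC10 and 21.1 CPM in Control libraries.

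At least 1 count was present for 295 long genes in IMR-32 and for 268 in SHEP, for 259 in both and for 15 in neither. Enough counts for a test were present for 236 in IMR-32 (74.0%) and for 144 in SHEP (45.1%). The 2 lines differed in where long genes stood among other genes. In IMR-32 the share with enough counts grew with span, through 13.5% under 10 kb, 52.7% at 10 to 50 kb, 63.2% at 50 to 100 kb and 69.3% at 100 to 500 kb, and was highest for the long genes. In SHEP it grew through 11.7%, 46.6%, 57.3% and 59.2% over the same classes and was lower for the long genes. Of the long genes, 132 were tested in both lines, 104 in IMR-32 alone and 12 in SHEP alone. All long genes together took 0.708 to 0.733% of the counts in shEXOSC10 and 0.665 to 0.696% in Control libraries. In SHEP they took 0.252 to 0.308% in MYCNWT, 0.213 to 0.237% in MYCN3A and 0.255 to 0.289% in noMYCN libraries.

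Scaled by exon length, 126 long genes exceeded 1 RPKM (CPM per kilobase of exon) in Control cells and 78 in noMYCN cells, 57 of them in both. The highest in IMR-32 was SYT1, the calcium sensor of synaptic vesicle release, at 97.8 RPKM in shEXOSC10 and 96.5 RPKM in Control cells. ENSG00000250349 came next at 44.5 RPKM in Control cells, but all of its exon bases are shared with other genes on its strand, mainly TSPAN7, so its reads cannot be assigned to it. THSD7B (33.8 RPKM), ADGRL2, a latrophilin adhesion receptor (31.4 RPKM), AUTS2, a chromatin regulator of neurons (23.2 RPKM), and CNTNAP2 (23.1 RPKM) followed in Control cells. SHEP had another order: the highest in noMYCN cells were ADK, which encodes adenosine kinase (27.9 RPKM), the ubiquitin adaptor FAF1 (19.7 RPKM), the translation initiation factor subunit EIF2B5 (12.3 RPKM), ADGRL2 (9.64 RPKM), the mitochondrial tRNA synthetase FARS2 (9.58 RPKM) and the pyrimidine-degrading enzyme DPYD (9.37 RPKM).

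**Figure D1:**
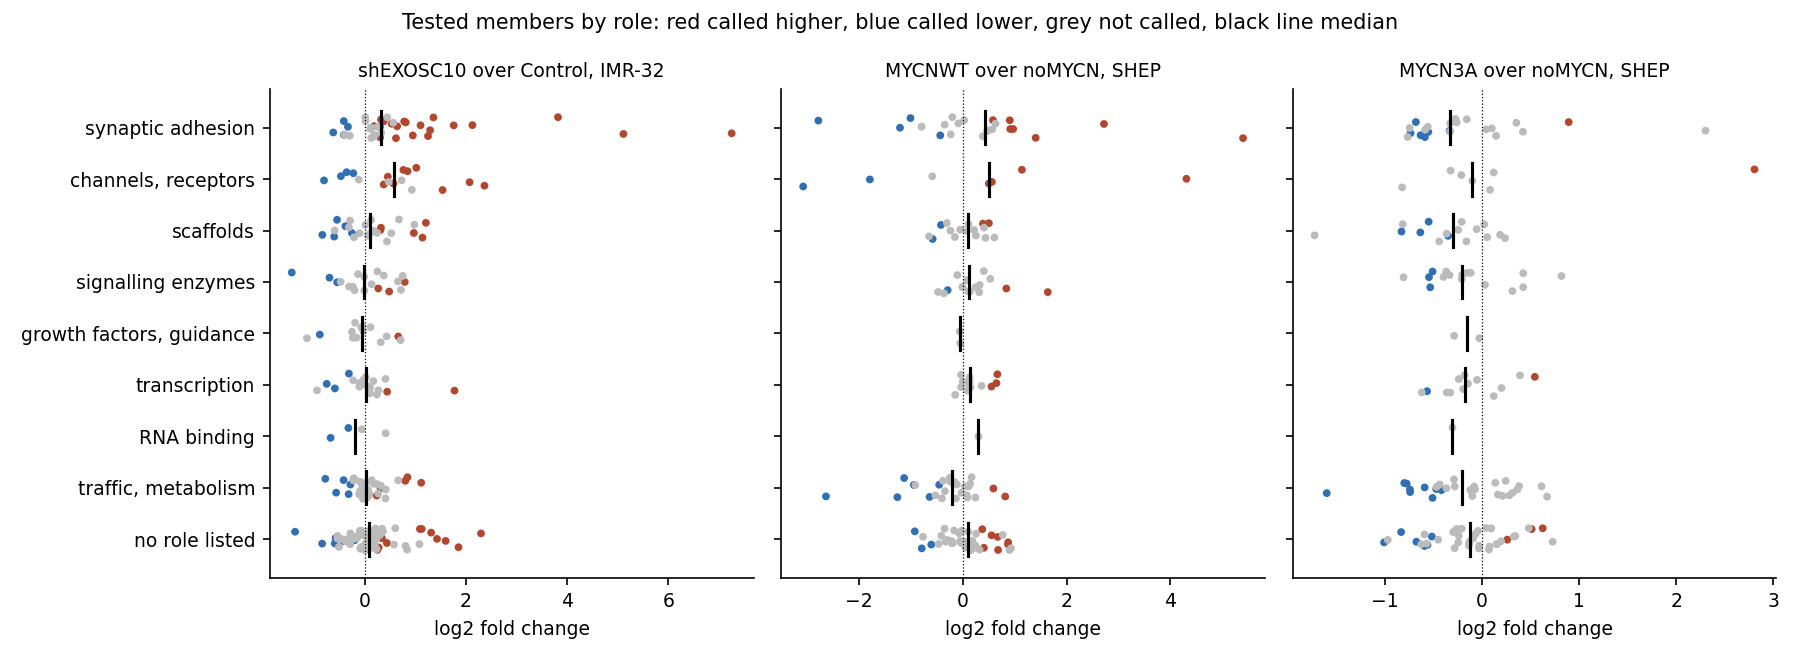
Log2 fold change of each tested long gene by role (rows), for shEXOSC10 over Control, MYCNWT over noMYCN and MYCN3A over noMYCN, with points coloured red where called higher, blue where called lower and grey where not called, and a black line at the median. The horizontal scales differ between panels. Among adhesion genes 21 are called higher and 4 lower with EXOSC10 depletion, and 1 higher and 6 lower with MYCN 3A.

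EXOSC10 depletion in IMR-32 was followed by changes in a larger share of the long genes than of genes in general, more often upwards. Of 236 tested, 57 were higher and 33 lower in shEXOSC10 cells at an adjusted p under 0.05 (the quasi-likelihood test of edgeR, adjusted by Benjamini-Hochberg), which is 38.1%, against 27.1% of all 17103 genes tested. Higher calls made up 24.2% of the long genes, against 13.5% of all genes, and lower calls 14%, against 13.7%. Most of the excess of higher over lower calls was in 2 role lists. These were adhesion genes (21 higher and 4 lower of 38) and channels and receptors (9 and 4 of 17). In the other long genes higher and lower calls were close in number. Counts of the 2 groups did not overlap for 47.0% of the long genes and 38.4% of all. A change of at least 2-fold was called for 24 higher and 2 lower, or 11% of the long genes, against 3.46% of all. The median log2 fold change of the long genes was 0.11, against -0.00 over all genes. Their sizes of change were also wider, with a median absolute log2 fold change of 0.31, against 0.20 over all genes. Of the 142 long genes with a mean log2 CPM over 3, 37 were higher and 28 lower, with a median of 0.05. At 3 to 5, 21.2% were higher and 12.9% lower, against 14.6% and 13.6% of genes of 100 to 500 kb. Over 5 the numbers were close, with 19 higher and 17 lower of 57 long genes. Among genes of 100 to 500 kb at that level it was 262 and 252 of 1191.

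The per-library medians of the long genes, each taken against the Control mean, were 0.08, 0.09 and 0.12 in shEXOSC10 libraries and -0.00, -0.02 and 0.03 in Control libraries on the log2 scale with 0.5 CPM added, so the groups did not overlap. By span, higher calls made up 9.54% of genes under 10 kb, 14.2% at 10 to 50 kb, 14.1% at 50 to 100 kb, 17.3% at 100 to 500 kb and 24.2% of the long genes, whereas lower calls stayed between 11.2 and 15% in every class. These classes differed in level. Their median of mean log2 CPM was 2.29 under 10 kb, 4.61 at 100 to 500 kb and 3.42 in the long genes. Over a mean log2 CPM of 5, lower calls were 31.0% under 10 kb, 18.9% at 50 to 100 kb and 29.8% in long genes. Higher calls there were still most frequent in the long genes, at 33.3%. Under 1, higher calls outnumbered lower calls in every class, with 8 and 0 of 33 long genes. Among the long genes themselves, the fold change went neither with span (Spearman's rho 0.01 across 236 genes) nor with summed exon length (rho -0.03). These are correlations across genes of the same libraries and are given as descriptions. With the span set to over 1000000 bases the median was nonetheless 0.30 across 42 genes, against 0.11 for all tested long genes.

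**Figure D2:**
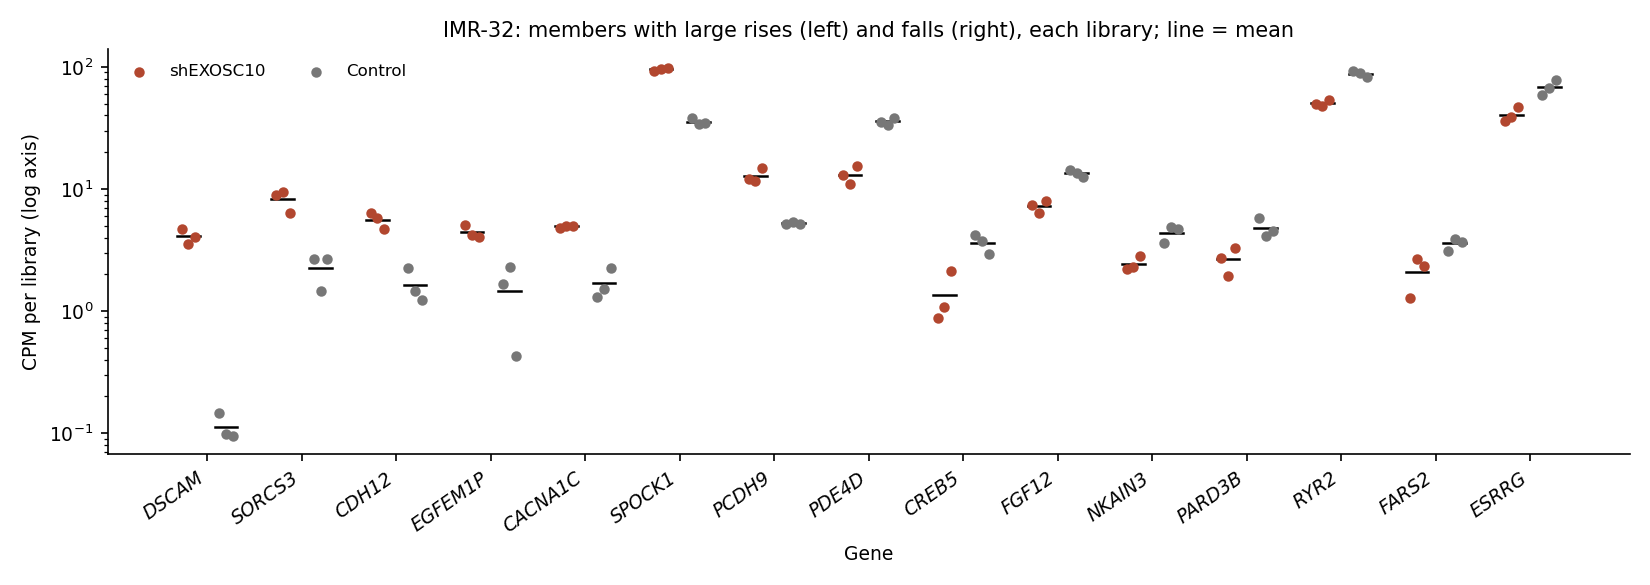
Levels of long genes among those with the largest rises (left) and the largest falls (right) in the 6 IMR-32 libraries (CPM, log axis), shEXOSC10 in red left of Control in grey, with a point per library and a line at the mean. They were picked among called genes whose groups do not overlap, so the gap between groups is part of the choice. DSCAM is at 3.57 to 4.71 CPM in shEXOSC10 against 0.0952 to 0.146 CPM in Control libraries.

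Adhesion molecules made up the largest group of the rises. Of 38 tested, 21 were higher and 4 lower in shEXOSC10 cells, with a median log2 fold change of 0.33. DSCAM, an immunoglobulin-type receptor of neuronal self-avoidance, was at 4.71, 3.57 and 4.02 CPM in shEXOSC10 libraries, against 0.146, 0.0981 and 0.0952 CPM in Control libraries. It was close to absent from Control cells and present in every shEXOSC10 library, with a log2 ratio of 5.11 ± 0.48 (± SE; adjusted p = 3e-14 by edgeR). CSMD1 had 24, 10 and 24 counts in shEXOSC10 libraries and 0 in each Control library, which puts it at least 19.3-fold higher when the floor is 3 counts over the Control group. Its relative CSMD2 stood at a much higher level, 67.2, 66.4 and 64.2 CPM in shEXOSC10 and 29.4, 25.7 and 27.8 CPM in Control libraries (log2 1.25 ± 0.08, adjusted p = 3.4e-21 by edgeR).

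The cadherin-type genes CDH12 and PCDH9 rose as well. CDH12 was at 6.37, 5.74 and 4.70 CPM in shEXOSC10 and at 2.24, 1.47 and 1.24 CPM in Control libraries (log2 1.76). PCDH9 was at 12.2, 11.5 and 14.7 CPM in shEXOSC10 and at 5.20, 5.39 and 5.14 CPM in Control libraries (log2 1.29). PTPRN2, a receptor phosphatase of secretory vesicles, was at 118, 113 and 120 CPM in shEXOSC10 and at 79.0, 68.7 and 76.8 CPM in Control libraries (log2 0.64). CNTNAP2, the longest of all, was at 285, 296 and 313 CPM in shEXOSC10 and at 230, 234 and 251 CPM in Control libraries (log2 0.32 ± 0.05, adjusted p = 9.8e-08 by edgeR). PTPRD rose by a similar step (log2 0.31). LSAMP went the other way, at 117, 114 and 118 CPM in shEXOSC10 and 155, 151 and 158 CPM in Control libraries (log2 -0.41), while its family relative NEGR1 was at 13.1, 12.3 and 14.2 CPM in shEXOSC10 and 4.86, 6.33 and 7.23 CPM in Control libraries (log2 1.10). Of the 6 longest genes, CNTNAP2, PTPRD and CSMD1 were called higher and LSAMP lower. DMD was at 4.12, 4.84 and 5.05 CPM in shEXOSC10 and 3.99, 4.51 and 3.9 CPM in Control libraries and was not called. DLG2 was not called either, at 1.72, 1.51 and 1.06 CPM in shEXOSC10 and 0.875, 0.981 and 1.09 CPM in Control libraries.

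Channels and receptors had the highest median of the role lists in this comparison, 0.57, with 9 higher and 4 lower of 17. CACNA1C, the pore subunit of an L-type calcium channel, was at 4.80, 5.02 and 4.97 CPM in shEXOSC10 and at 1.31, 1.52 and 2.24 CPM in Control libraries (log2 1.54). It was low in Control cells. The potassium channel KCNMA1 (log2 0.77) and the sodium-calcium exchanger SLC8A1 (log2 0.57) rose less. RYR2, a calcium release channel of the endoplasmic reticulum, fell: it was at 49.8, 48.1 and 53.3 CPM in shEXOSC10 and at 92.7, 89.4 and 81.9 CPM in Control libraries (log2 -0.80 ± 0.07, adjusted p = 3e-15 by edgeR). The related RYR3 (log2 -0.47) and the kainate receptor GRIK2 (log2 -0.36) were lower too.

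Scaffolds were split evenly, with 5 higher and 5 lower of 25. The ankyrins, which anchor channels to the spectrin skeleton, were both higher. ANK2 was at 273, 263 and 283 CPM in shEXOSC10 and at 128, 117 and 125 CPM in Control libraries (log2 1.14 ± 0.05, adjusted p = 9.2e-30 by edgeR). ANK3 was at 110, 102 and 102 CPM in shEXOSC10 and at 53.4, 53.0 and 53.8 CPM in Control libraries (log2 0.97). KAZN was higher (log2 1.21) and NBEA, a neuronal trafficking scaffold, lower (log2 -0.60). Outside the role lists, the proteoglycan SPOCK1 was at 92.1, 95.2 and 98.5 CPM in shEXOSC10 and at 37.8, 33.9 and 34.4 CPM in Control libraries (log2 1.43 ± 0.07, adjusted p = 8.2e-27 by edgeR). The sorting receptor SORCS3 was at 8.92, 9.49 and 6.41 CPM in shEXOSC10 and at 2.67, 1.47 and 2.67 CPM in Control libraries (log2 1.85). The heparan sulfate proteoglycan GPC6, a co-receptor for growth factors, was also higher (log2 0.66), as was the lipid flippase ATP8A2 (log2 1.12).

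Signalling, transcription and RNA-binding genes showed no such tilt, with 3 higher and 3 lower of 19, 2 and 3 of 18, and 0 and 2 of 4. Over all genes 13.5% were higher and 13.7% lower. PDE4D, a cyclic AMP phosphodiesterase, had the largest fall among the long genes named in this comparison. It was at 13, 10.9 and 15.4 CPM in shEXOSC10 and at 35.5, 33.7 and 38.5 CPM in Control libraries (log2 -1.44 ± 0.11, adjusted p = 8.6e-18 by edgeR). The kinase MAPK10 went up (log2 0.79), and the Arf regulator AGAP1 went down (log2 -0.69). AUTS2 was at 168, 151 and 163 CPM in shEXOSC10 and at 246, 247 and 232 CPM in Control libraries (log2 -0.59 ± 0.05, adjusted p = 1.9e-15 by edgeR). The nuclear receptor ESRRG was lower (log2 -0.75). RBFOX3, the neuronal splicing factor known as NeuN, was at 74.0, 73.9 and 70.1 CPM in shEXOSC10 and at 122, 114 and 110 CPM in Control libraries (log2 -0.67), and the groups did not overlap. Growth factor and guidance genes had 1 higher and 1 lower of 14, GPC6 being higher and FGF12, an intracellular channel regulator, lower (log2 -0.89). Traffic and metabolism genes had 5 higher and 5 lower of 38, DPYD among the lower (log2 -0.56). Of 24 tested fragile-site genes, 5 were higher and 6 lower.

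Of the 40 long genes named by rule in this comparison, 36 kept their call when any 1 library was left out. The other 4 each lost it: NKAIN3 (log2 -0.84) without Control replicate 2, PARD3B (log2 -0.83) without Control replicate 1 or shEXOSC10 replicate 2, DAB1 (log2 0.48) without Control replicate 1 or shEXOSC10 replicate 1, and FARS2 (log2 -0.78) without Control replicate 2 or 3 or shEXOSC10 replicate 1 or 3, at adjusted p = 0.0611 to 0.254 by edgeR. Adrenergic markers fell at the same time, with 1 higher and 8 lower of 10 and a sum of 1840 to 1895 CPM in shEXOSC10 against 3216 to 3460 CPM in Control libraries. In 7 tested mesenchymal markers, 3 were higher and 1 lower. All 10 listed summed to 1395.3 to 1430.4 CPM in shEXOSC10 against 1119.7 to 1180.5 CPM in Control libraries. MYCN itself was at 596, 595 and 605 CPM in shEXOSC10 and at 1090, 1087 and 1115 CPM in Control libraries. In bulk RNA, fewer cells of a type and less RNA per cell cannot be told apart, and the part of these shifts in the changes of the long genes was not tested.

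In SHEP cells with wild-type MYCN, too, a larger share of the long genes than of all genes was called. Against noMYCN cells, 27 were higher and 18 lower of 144 in MYCNWT cells, or 31.2%, against 22.2% of all 14923 genes tested (the quasi-likelihood test of edgeR, adjusted by Benjamini-Hochberg, at 0.05). Higher calls made up 18.8%, against 10.9% of all genes, and lower calls 12.5%, against 11.3%. Counts of the 2 groups did not overlap for 43.1% and 37.5%. The median log2 fold change was 0.07, against -0.00 over all genes. That median changed sign without MYCNWT replicate 1, to -0.04, and was 0.07 with a replicate block. The lower calls numbered 11 without MYCNWT replicate 2. Over all genes, lower calls numbered 1064 in that fit, against 1681 with all libraries. The per-library medians against the noMYCN mean were 0.17, 0.04 and -0.01 in MYCNWT libraries and 0.07, 0.00 and -0.06 in noMYCN libraries, which overlapped. In both groups the median fell from replicate 1 to replicate 3, and at each number it was higher in MYCNWT. The labels give no pairing of these numbers.

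Transcription factor genes had 3 higher and 0 lower of 13, a share called near the 22.2% of all genes. RUNX1, a factor of the core-binding family, was at 51.9, 46.9 and 42.4 CPM in MYCNWT and at 33.5, 32.5 and 30.5 CPM in noMYCN libraries (log2 0.55 ± 0.12, adjusted p = 0.0017 by edgeR). MECOM, a zinc finger regulator, was at 44.8, 36.0 and 35.4 CPM in MYCNWT and at 24.5, 25.6 and 24.3 CPM in noMYCN libraries (log2 0.64). The histone deacetylase HDAC9 was at 33.1, 23.3 and 26.4 CPM in MYCNWT and at 18.8, 16.5 and 17.0 CPM in noMYCN libraries (log2 0.66). All MYCNWT libraries stood above all noMYCN libraries for each of the 3.

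Channels and receptors had 4 higher and 2 lower of 7. SLC8A1 was at 38.7, 29.4 and 25.7 CPM in MYCNWT and at 16.2, 13.1 and 13.4 CPM in noMYCN libraries (log2 1.14 ± 0.16, adjusted p = 1.5e-05 by edgeR). KCNMA1 was at 63.1, 67.9 and 66.2 CPM in MYCNWT and at 51.9, 43.3 and 44.4 CPM in noMYCN libraries (log2 0.50). The groups of KCNMA1 did not overlap, and SLC8A1 was named by a rule that requires this. Adhesion genes had 7 higher and 4 lower of 22. NTM, a further IgLON gene, was at 15.9, 12.6 and 12.7 CPM in MYCNWT and at 6.51, 6.79 and 8.78 CPM in noMYCN libraries (log2 0.90), and CDH13, a cadherin held to the membrane by a lipid anchor, was at 38.7, 34.7 and 36.1 CPM in MYCNWT and at 25.8, 25 and 22.5 CPM in noMYCN libraries (log2 0.58). Neither had a count in any IMR-32 library. TENM2, a teneurin adhesion protein, fell, at 9.79, 6.45 and 6.92 CPM in MYCNWT and 18.3, 18.9 and 16.6 CPM in noMYCN libraries (log2 -1.21 ± 0.18, adjusted p = 3.2e-05 by edgeR).

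Traffic and metabolism genes leaned down, with 2 higher and 6 lower of 28, against 10.9% higher and 11.3% lower over all genes. RABGAP1L, a Rab GTPase regulator, was at 5.17, 4.59 and 3.74 CPM in MYCNWT and at 9.61, 11.3 and 11.7 CPM in noMYCN libraries (log2 -1.27 ± 0.19, adjusted p = 4.4e-05 by edgeR). The sialyltransferase ST6GALNAC3 was at 6.32, 6.31 and 4.10 CPM in MYCNWT and at 13, 11 and 12.7 CPM in noMYCN libraries (log2 -1.14). NAV2, a neuron navigator, was higher (log2 0.81). Outside the role lists, ADK was at 106, 126 and 132 CPM in MYCNWT and at 84.6, 85.8 and 78.4 CPM in noMYCN libraries (log2 0.55), and FAF1 was at 137, 133 and 132 CPM in MYCNWT and at 102, 108 and 99.9 CPM in noMYCN libraries (log2 0.37). KCNAB1, a potassium channel subunit, was close to 0 in noMYCN cells and was at 1.90, 3.15 and 3.67 CPM in MYCNWT against 0.124, 0 and 0.288 CPM in noMYCN libraries. Of 31 long genes named by rule in this comparison, 10 lost their call when some 1 library was left out (BCAS3, DMD, KIRREL3, MAGI1, MAST4, NLGN1, PRKCA, RIMS2, SUGCT and SYNE1), at adjusted p = 0.0509 to 0.204 by edgeR, and each of the 6 libraries cost at least 1 of them its call.

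Since MYCN binds E-boxes, promoters of the long genes were read for them. RefSeq promoters of GRCh38.p14, 300 bases each from 250 before to 50 after the gene start, were matched for 249 long genes. CACGTG, which reads the same on both strands, was present in 17 (6.83%), against 7.43% of all 27305 promoters. CATGTG, searched on both strands, was present in 10.4%, against 11.2%, and TATAAA, also on both strands, in 9.64%, against 11.95%. The 3 motifs were counted separately, and a promoter with several was counted for each. Median GC content was 64.7% in the long genes and 58.3% in all promoters. Among long genes with a promoter in the table, CACGTG was present for 3 of 21 called higher in MYCNWT cells, 1 of 16 called lower and 6 of 87 not called. Between the forms the shares ran the other way, with 2 of 40 called higher in MYCNWT than in MYCN3A cells, 1 of 11 called lower and 7 of 73 not called. Below are the promoters of the called genes with CACGTG (in capitals) and, for comparison, those of ENOX1 and NTM, which were called in opposite directions with the MYCN forms and have none of the 3 motifs. They are given 5' to 3' on the strand of the gene, in GRCh38.p14 coordinates: FAF1 at chr1:50960218-50960517 (minus strand, motif from -72), MAGI1 at chr3:66038869-66039168 (minus strand, motif from -207), RGS7 at chr1:241357156-241357455 (minus strand, motif from -55), ST6GALNAC3 at chr1:76074496-76074795 (plus strand, motif from -119), ENOX1 at chr13:43629428-43629727 (minus strand) and NTM at chr11:131370365-131370664 (plus strand). Positions count from the RefSeq gene start, which may not be the start used in SHEP cells.
FAF1: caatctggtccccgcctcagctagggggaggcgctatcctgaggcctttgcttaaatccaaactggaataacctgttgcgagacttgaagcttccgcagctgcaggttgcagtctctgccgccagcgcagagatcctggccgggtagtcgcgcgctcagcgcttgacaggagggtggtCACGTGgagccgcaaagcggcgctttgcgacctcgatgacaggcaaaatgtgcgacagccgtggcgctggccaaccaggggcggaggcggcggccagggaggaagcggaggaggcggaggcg
MAGI1: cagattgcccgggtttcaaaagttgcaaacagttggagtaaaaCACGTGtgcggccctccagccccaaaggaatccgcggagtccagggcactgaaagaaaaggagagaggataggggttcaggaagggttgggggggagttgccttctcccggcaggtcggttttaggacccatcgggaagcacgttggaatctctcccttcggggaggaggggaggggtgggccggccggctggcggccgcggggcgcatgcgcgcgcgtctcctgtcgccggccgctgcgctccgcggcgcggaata
RGS7: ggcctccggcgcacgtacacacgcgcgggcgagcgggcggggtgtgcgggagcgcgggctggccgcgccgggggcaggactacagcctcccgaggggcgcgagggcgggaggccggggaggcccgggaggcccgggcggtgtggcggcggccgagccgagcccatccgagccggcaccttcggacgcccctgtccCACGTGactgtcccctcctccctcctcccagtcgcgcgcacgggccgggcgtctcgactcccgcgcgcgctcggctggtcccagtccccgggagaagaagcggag
ST6GALNAC3: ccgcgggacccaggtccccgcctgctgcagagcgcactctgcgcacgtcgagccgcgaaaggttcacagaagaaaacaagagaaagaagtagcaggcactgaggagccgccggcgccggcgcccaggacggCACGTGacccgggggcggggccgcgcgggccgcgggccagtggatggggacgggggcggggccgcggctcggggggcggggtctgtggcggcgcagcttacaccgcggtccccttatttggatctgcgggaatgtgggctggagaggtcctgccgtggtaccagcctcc
ENOX1: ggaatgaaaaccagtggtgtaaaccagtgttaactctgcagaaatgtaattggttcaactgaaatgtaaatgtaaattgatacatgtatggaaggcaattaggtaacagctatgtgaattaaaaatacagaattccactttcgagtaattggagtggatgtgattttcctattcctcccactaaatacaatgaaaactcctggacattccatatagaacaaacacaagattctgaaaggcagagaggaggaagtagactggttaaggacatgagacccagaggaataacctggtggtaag
NTM: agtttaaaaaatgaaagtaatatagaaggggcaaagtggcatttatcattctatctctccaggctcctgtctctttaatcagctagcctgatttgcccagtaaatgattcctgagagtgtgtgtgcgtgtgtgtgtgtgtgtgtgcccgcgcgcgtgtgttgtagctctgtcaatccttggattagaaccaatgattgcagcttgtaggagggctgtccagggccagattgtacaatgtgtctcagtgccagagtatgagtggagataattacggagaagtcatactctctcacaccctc

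FAF1, MAGI1 and RGS7 were the 3 higher in MYCNWT cells and ST6GALNAC3 the 1 lower. MAGI1, a junction scaffold, was at 16.4, 16.8 and 15.5 CPM in MYCNWT and at 12.2, 9.55 and 12.7 CPM in noMYCN libraries (log2 0.50), a call lost without noMYCN replicate 2 (adjusted p = 0.132 by edgeR) or MYCNWT replicate 2 (adjusted p = 0.0606). RGS7, a regulator of G protein signalling, was at 1.63, 3.44 and 3.74 CPM in MYCNWT and at 1.12, 0.746 and 0.936 CPM in noMYCN libraries (log2 1.63). A motif match describes these letters in this window and no more.

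MYCN 3A had a different balance. Against noMYCN cells, 6 long genes were higher and 29 lower of 144 in MYCN3A cells, or 24.3%, against 25.5% of all genes tested, so the share called was near the background. The directions were not: 4.17% were higher, against 12.7% of all genes, and 20.1% lower, against 12.8%. The median log2 fold change of the long genes was -0.21, against -0.04 over all genes, and 97 of 144 were below 0. Counts of the 2 groups did not overlap for 37.5% of the long genes and 41.3% of all. Among the 87 with a mean log2 CPM over 3, 4 were higher and 24 lower. At 3 to 5, 3.17% were higher and 22.2% lower, against 2.66% and 25.9% of genes of 100 to 500 kb. Over 5 it was 8.33% and 41.7%, against 8.56% and 30.0%. The count of lower calls depended on single libraries: it was 15 without noMYCN replicate 1, 19 without noMYCN replicate 2 and 19 without MYCN3A replicate 3, and the 6 higher calls became 3 without MYCN3A replicate 2. Lower calls over all genes fell in the same fits, to 1022, 1227 and 1235, against 1913 with all libraries, and higher calls without MYCN3A replicate 2 to 1431, against 1893. Per-library medians against the noMYCN mean were -0.07, -0.15 and -0.24 in MYCN3A libraries and 0.07, 0.00 and -0.06 in noMYCN libraries, so the groups were separated by less than 0.01. Here too the medians fell from replicate 1 to replicate 3, and at each number the median was lower in MYCN3A.

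**Figure D3:**
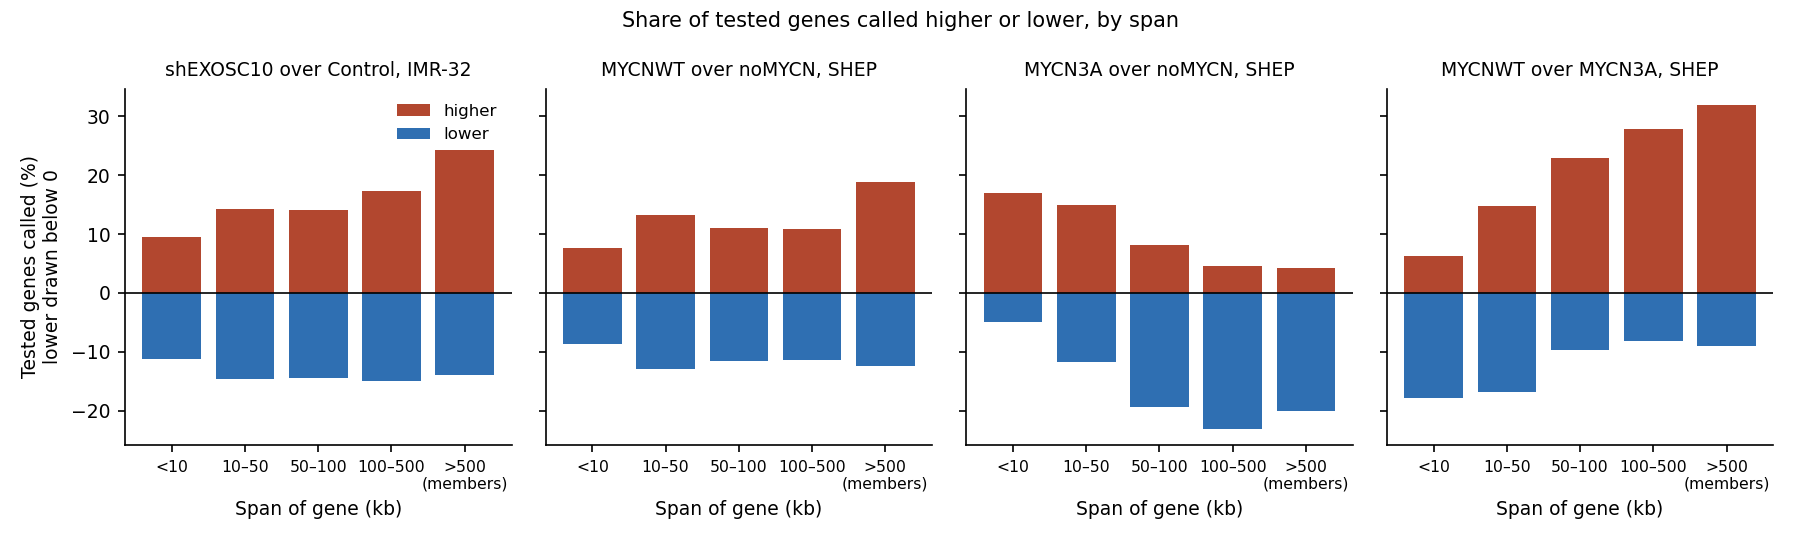
Share of tested genes called higher (red, above 0) or lower (blue, below 0), in percent, by class of span (kb), in each of the 4 comparisons. In MYCN3A over noMYCN cells lower calls are 4.90% under 10 kb, 23.1% at 100 to 500 kb and 20.1% in the long genes. In MYCNWT over MYCN3A cells higher calls reach 31.9% in the long genes.

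The downward shift in MYCN3A cells was not particular to genes over 500 kb. Median log2 fold changes were 0.13 under 10 kb, -0.01 at 10 to 50 kb, -0.14 at 50 to 100 kb, -0.21 at 100 to 500 kb and -0.21 in the long genes. Lower calls made up 4.90%, 11.7%, 19.4%, 23.1% and 20.1% over the same classes, and higher calls 16.9%, 15%, 8.06%, 4.51% and 4.17%. Both shares and the median changed little beyond 100 kb. Genes under 10 kb took 32.6 to 33.6% of all counts in MYCN3A libraries, against 29.5 to 31.0% in noMYCN libraries, and the part of this shift in the change of the long genes was not tested. Scaling by library totals in place of TMM moved the median of all genes to -0.14 and that of the long genes to -0.31.

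Within the long genes, the fall went with the summed length of exons and not with span. Spearman's rho of the fold change was 0.01 with span and -0.35 with exon length across 144 long genes, and -0.27 and -0.34 across all genes tested. These rho values describe genes of the same libraries, which are not independent. Long genes with 2 to 4 kb of exon had a median log2 fold change of 0.38 (10 genes), those with 4 to 6 kb -0.03 (11 genes), those with 6 to 9 kb -0.10 (40 genes) and those with over 9 kb -0.30 (82 genes). The first 2 of these classes are small, and the other 2 kept the same order. Genes of 100 to 500 kb gave 0.01, -0.15, -0.24 and -0.31 over the same exon lengths, and genes of only 10 to 50 kb gave 0.07, -0.05, -0.10 and -0.16.

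**Figure D4:**
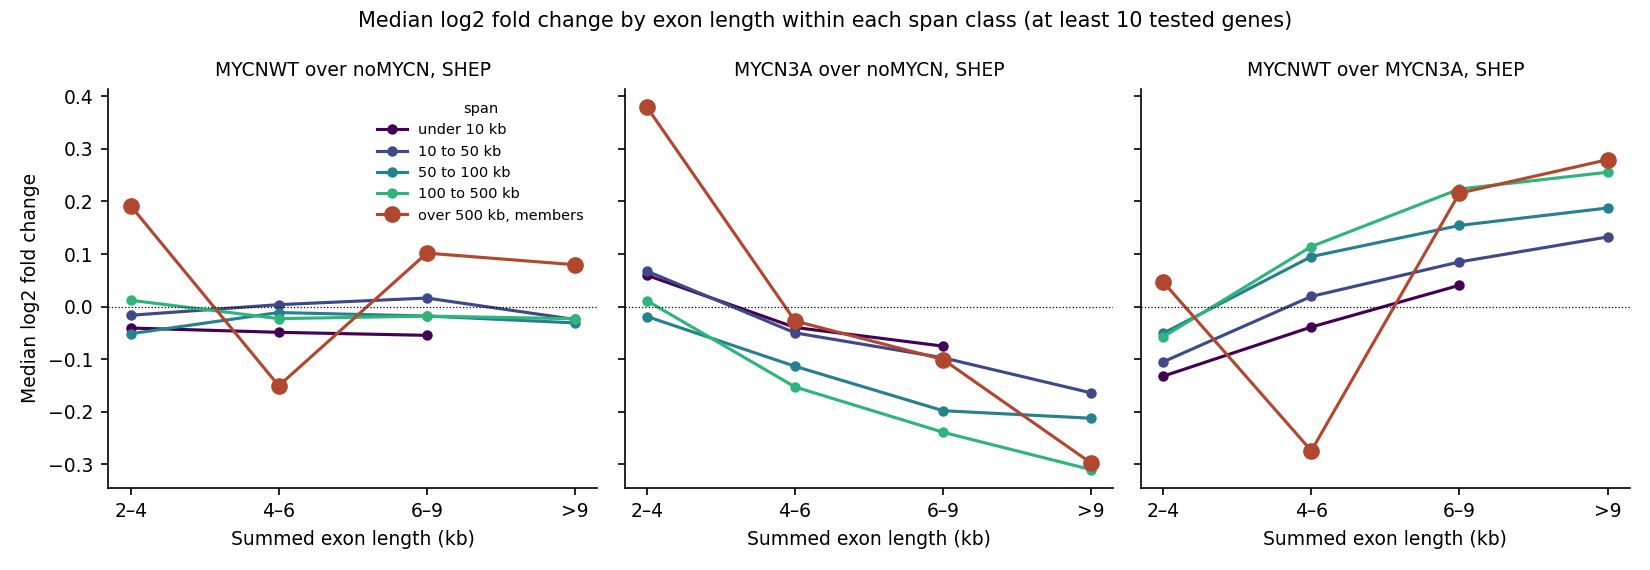
Median log2 fold change of tested genes by summed exon length (kb), with a line for each class of span and a point where at least 10 genes were tested, in the 3 SHEP comparisons. In MYCN3A over noMYCN cells the long genes (red) stand at 0.38 with 2 to 4 kb of exon and at -0.30 with over 9 kb.

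Named falls covered several roles. SBF2, an activator of Rab GTPases, was at 10.3, 15.8 and 9.07 CPM in MYCN3A and at 28.9, 20.4 and 20.9 CPM in noMYCN libraries (log2 -1.01 ± 0.19, adjusted p = 0.00055 by edgeR). UTRN, the dystrophin relative utrophin, was at 19.99, 18.9 and 20.1 CPM in MYCN3A and at 43.1, 34.0 and 27.4 CPM in noMYCN libraries (log2 -0.83). VPS13B, a lipid transfer protein of the Golgi, was at 8.95, 9.05 and 6.94 CPM in MYCN3A and at 16.4, 12.8 and 13.4 CPM in noMYCN libraries (log2 -0.77). The rule that named these 3 requires groups that do not overlap. SPOCK1, which was higher on EXOSC10 depletion in IMR-32, was at 4.33, 3.52 and 3.94 CPM in MYCN3A and at 6.94, 7.46 and 6.62 CPM in noMYCN libraries (log2 -0.83). DPYD was at 45.1, 46.2 and 38.5 CPM in MYCN3A and at 63.5, 58.6 and 62.2 CPM in noMYCN libraries (log2 -0.51 ± 0.11, adjusted p = 0.0016 by edgeR). The endosomal regulator TBC1D5 was also lower (log2 -0.47).

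By list, adhesion genes had 1 higher and 6 lower of 22, traffic and metabolism genes 0 and 9 of 28, scaffolds 0 and 4 of 16, signalling genes 0 and 3 of 16, transcription genes 1 and 1 of 13 and fragile-site genes 0 and 3 of 14. The shares called among scaffolds, signalling, transcription and fragile-site genes were near or below the 25.5% of all genes. TENM3 (log2 -0.68), ADGRL2 (log2 -0.63) and the receptor phosphatase PTPRK (log2 -0.59) were among the adhesion genes, and PRKCA, a protein kinase C (log2 -0.51), and the phosphodiesterase PDE1C (log2 -0.53) among the signalling genes. Among the 6 called higher, FAF1 averaged 124 CPM in MYCN3A and 103 CPM in noMYCN cells (log2 0.26), and ADK was at 132, 114 and 109 CPM in MYCN3A and at 84.6, 85.8 and 78.4 CPM in noMYCN libraries (log2 0.51, adjusted p = 0.00062 by edgeR). Mesenchymal markers also leaned down, with 1 higher and 6 lower of 10 and a sum of 7058 to 7511 CPM in MYCN3A against 8416 to 8953 CPM in noMYCN libraries, whose part in the result was not tested. EXOSC10 itself was lower (log2 -0.40, adjusted p = 0.0095 by edgeR), at 62.6, 57.1 and 64.9 CPM in MYCN3A and 90.1, 83.7 and 69.5 CPM in noMYCN libraries. Of 28 long genes named by rule in this comparison, 13 lost their call when some 1 library was left out (ANK3, CDH13, DOCK1, ENOX1, ERC1, EXOC6B, FAF1, GLIS3, NEGR1, NTM, PTPRG, SUPT3H and SYNE1), at adjusted p = 0.0505 to 0.247 by edgeR, and each of the 6 libraries cost at least 1 of them its call.

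**Figure D5:**
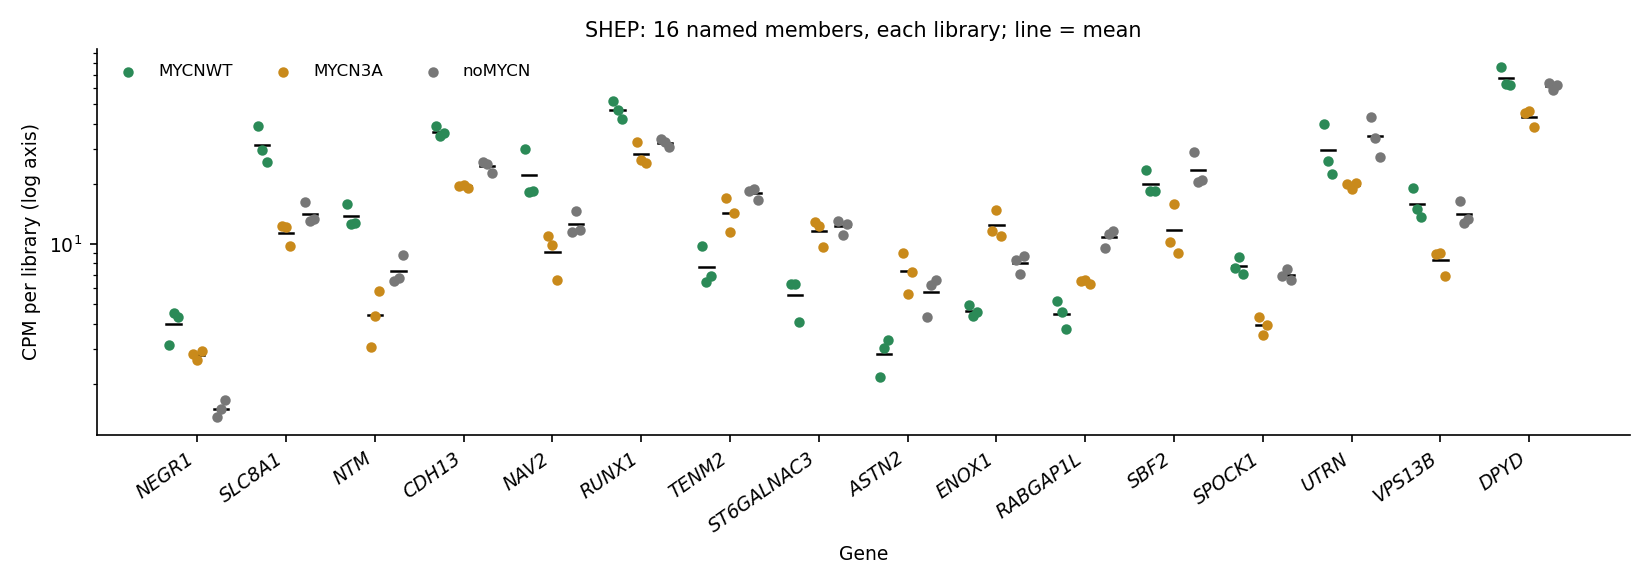
Levels of 16 named long genes in the 9 SHEP libraries (CPM, log axis), MYCNWT and MYCN3A left of noMYCN, with a point per library and a line at the mean. NTM and CDH13 are highest in MYCNWT and lowest in MYCN3A libraries, and ENOX1 has the opposite order.

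Set directly against each other, both forms on doxycycline, wild-type MYCN left the long genes higher than 3A did. In MYCNWT cells 46 were higher and 13 lower than in MYCN3A cells, or 41.0% of 144, against 30.3% of all genes tested (the quasi-likelihood test of edgeR, adjusted by Benjamini-Hochberg, at 0.05). Higher calls made up 31.9%, against 15.8% of all genes, and lower calls 9.03%, against 14.5%. Counts of the 2 groups did not overlap for 49.3% of the long genes and 40.4% of all. The median log2 fold change was 0.22, against 0.00. Without MYCNWT replicate 1 the higher calls numbered 29, and without MYCN3A replicate 2 the lower calls numbered 8. Over all genes, higher calls numbered 1674 in the first of these fits, against 2359 with all libraries. Lower calls over all genes numbered 1654 in the second, against 2168. Medians by span ran through -0.14, -0.02, 0.10 and 0.19 to 0.22 in the long genes. Of genes of 100 to 500 kb, 27.8% were higher and 8.23% lower, so the shift was not particular to genes over 500 kb. Within the long genes, Spearman's rho of the fold change was -0.10 with span and 0.27 with exon length. By exon length, medians of the long genes were 0.05 at 2 to 4 kb (10 genes), -0.27 at 4 to 6 kb (11 genes), 0.22 at 6 to 9 kb and 0.28 above 9 kb. Genes of 100 to 500 kb gave -0.06, 0.11, 0.22 and 0.26 over the same exon lengths. Genes under 10 kb took 28.4 to 31.8% of counts in MYCNWT libraries, against 32.6 to 33.6% in MYCN3A libraries. Of 10 mesenchymal markers, 7 were higher and 3 lower in MYCNWT than in MYCN3A cells, with sums of 8205 to 8329 CPM in MYCNWT and 7058 to 7511 CPM in MYCN3A libraries. EXOSC10 was higher as well (log2 0.60, adjusted p = 0.00025 by edgeR). The part of these shifts in the difference of the long genes was not tested.

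Transcription genes had 7 higher and 0 lower of 13 in MYCNWT over MYCN3A cells. HDAC9 was at 33.1, 23.3 and 26.4 CPM in MYCNWT and at 17.2, 14.4 and 10.1 CPM in MYCN3A libraries (log2 0.99 ± 0.17, adjusted p = 0.00016 by edgeR). MECOM (log2 0.82), RUNX1 (log2 0.74) and the forkhead factor FOXP1 (log2 0.59) followed. Signalling genes had 5 higher and 0 lower of 16, adhesion genes 9 and 3 of 22, scaffolds 4 and 1 of 16, channels and receptors 4 and 2 of 7, and fragile-site genes 3 and 1 of 14. The shares called among signalling, scaffold and fragile-site genes were near the 30.3% of all genes. Traffic and metabolism genes were divided, with 6 higher and 6 lower of 28. SLC8A1 was at 38.7, 29.4 and 25.7 CPM in MYCNWT and at 12.3, 12.1 and 9.78 CPM in MYCN3A libraries (log2 1.46 ± 0.16, adjusted p = 1e-06 by edgeR). NAV2 was at 29.8, 18.3 and 18.5 CPM in MYCNWT and at 11, 9.85 and 6.62 CPM in MYCN3A libraries (log2 1.28).

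Lower with wild-type MYCN than with 3A were ASTN2, an astrotactin of migrating neurons, at 2.18, 3.01 and 3.32 CPM in MYCNWT and 9.02, 5.63 and 7.25 CPM in MYCN3A libraries (log2 -1.37), and ST6GALNAC3 (log2 -1.06) and TENM2 (log2 -0.89). The fragile-site gene WWOX, an oxidoreductase, was at 10.7, 13.3 and 12.8 CPM in MYCNWT and 16.4, 19.8 and 16 CPM in MYCN3A libraries (log2 -0.50), a call lost without MYCNWT replicate 1 (adjusted p = 0.0748 by edgeR) or MYCN3A replicate 2 (adjusted p = 0.0916). Of 34 long genes named by rule in this comparison, 10 lost their call when some 1 library was left out (ERC1, GPHN, KCNMA1, PCDH9, PTPRG, RBMS3, SH3RF3, TRAPPC9, UTRN and WWOX), at adjusted p = 0.0513 to 0.222 by edgeR, and each of the 6 libraries cost at least 1 of them its call.

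The 3 SHEP groups together gave several patterns of calls. The patterns were not counted over all tested genes, so whether they are more frequent in the long genes is not known. A set of 14 long genes was called higher in MYCNWT than in both other groups and was not called in MYCN3A against noMYCN. A further 16 were called lower in MYCN3A than in both other groups and not called in MYCNWT against noMYCN. Lower calls in both forms against noMYCN numbered 7. Opposite calls against noMYCN were made for 3: NTM and CDH13, higher in MYCNWT and lower in MYCN3A, and ENOX1, a cell surface oxidase, lower in MYCNWT and higher in MYCN3A. NTM was at 3.06, 4.4 and 5.83 CPM and CDH13 at 19.6, 19.7 and 19.0 CPM in MYCN3A libraries, below every noMYCN library in each case. ENOX1 was at 4.96, 4.37 and 4.59 CPM in MYCNWT, 11.6, 14.9 and 11 CPM in MYCN3A and 8.37, 7.09 and 8.71 CPM in noMYCN libraries. The calls of all 3 in MYCN3A against noMYCN were among those lost on leaving out a library.

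NEGR1 and SYNE1 were the only long genes called in EXOSC10 depletion, in MYCNWT against noMYCN and in MYCN3A against noMYCN. Genes with all of these calls were not counted beyond the long genes. NEGR1, an IgLON adhesion protein, was at 3.13, 4.51 and 4.31 CPM in MYCNWT, 2.83, 2.64 and 2.92 CPM in MYCN3A and 1.36, 1.49 and 1.66 CPM in noMYCN libraries. It was higher in both (log2 1.40, adjusted p = 0.0015, and 0.89, adjusted p = 0.038 by edgeR), and the 3A call was lost without any of the 6 libraries (adjusted p = 0.0565 to 0.125). It was higher on EXOSC10 depletion as well. SYNE1, a nuclear envelope spectrin-repeat protein, was at 58.6, 42.8 and 38.2 CPM in MYCNWT, 41.8, 48.6 and 38.0 CPM in MYCN3A and 71.7, 59.0 and 56.6 CPM in noMYCN libraries, with 53.2 CPM on average in shEXOSC10 and 42.6 CPM in Control cells. Its log2 fold change was 0.32 with EXOSC10 depletion, -0.42 in MYCNWT and -0.55 in MYCN3A cells. The MYCNWT call was lost without noMYCN replicate 1 (adjusted p = 0.162), MYCNWT replicate 2 (0.149) or MYCNWT replicate 3 (0.131), and the MYCN3A call without noMYCN replicate 1 (0.0521). The comparisons with noMYCN share those libraries.

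Genes whose products act in elongation, in splicing by U1 and U2 or as topoisomerases were taken as the other genes of the process, in a list of 57. On EXOSC10 depletion 8 were higher and 10 lower of 56, or 32.1%, against the 27.1% of all genes given above. The topoisomerases TOP1 and TOP2B, which relieve torsion ahead of the polymerase, averaged 175 ± 3.33 and 348 ± 8.65 CPM in shEXOSC10 cells, against 230 ± 12.6 and 433 ± 14.1 CPM in Control cells (SD, n = 3 each; log2 -0.40 and -0.32). HEXIM1, an inhibitor of the elongation kinase P-TEFb, was higher (log2 0.39), and so was the elongation factor SUPT6H (log2 0.22). In MYCNWT against noMYCN cells 8 were higher and 2 lower of 57 (17.5%, against 22.2% of all genes), HEXIM1 being lower (log2 -0.76) and the elongation factor ELL2 (log2 0.38) and the FACT subunit SSRP1 (log2 0.37) higher. In MYCN3A against noMYCN cells 9 were higher and 6 lower (26.3%, near the 25.5% of all genes), with the splicing factor U2AF1 (log2 0.52) and the U1 protein SNRNP70 (log2 0.43) higher and HEXIM1 lower (log2 -0.45). Between the forms 15 were higher and 7 lower in MYCNWT cells (38.6%, against 30.3% of all genes), AFF1, a scaffold of the super elongation complex, being higher (log2 0.70) and ELOB lower (log2 -0.45). Their part in the changes of the long genes was not tested.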

How the data were processed

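Polyadenylated RNA of 15 libraries was analysed from 2 tables, and the other 74 samples of the series were not analysed here. The deposited values are raw counts per gene. Per the submitters' processing notes, STAR 2.7.10a and featureCounts 2.0.3 were used with hg19, and the file header of the SHEP table gives Ensembl release 87, strand setting 2, a minimum overlap of 10 bases and counting for every overlapping gene. Libraries held 11638859 to 26193478 counts. The settings of the IMR-32 table are not given in the sources used here. Samples were assigned to the IMR-32 columns through the doxycycline or solvent name and the replicate number. Of the long genes, 36 share exon bases with another gene on their strand, 8 of them over 10%, and such reads may count for both. Spans are of gene models, so a gene counts as long where 1 transcript model reaches far.

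Genes were filtered with filterByExpr, scaled with TMM and tested with edgeR 4.0.16 (robust quasi-likelihood test, Benjamini-Hochberg adjustment at 0.05, R 4.3.3) over the whole table, with the 9 SHEP libraries in 1 fit. Fold changes are the first-named group over the second, with standard errors from the fit. Variation between replicates (biological coefficient) came to 0.077 for IMR-32 and 0.108 for SHEP. The procedure was tested on simulated data. RPKM used CPM and summed exon bases. Rows were named by a rule: the 8 largest rises and falls with a mean log2 CPM of at least 1 and groups that do not overlap, the 4 with the smallest p per role list, called fragile-site genes, and the 6 longest and 6 highest. Alternatives were DESeq2 1.42.0, other scalings and filters, other spans, a replicate block and leaving out each library. A long gene that the rule named is not reported here. The members and lists were chosen with earlier results of these data known.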

Additional observations from a re-analysis of the deposited data

Results flagged for a closer look

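In SHEP cells 3 long genes were called in opposite directions against noMYCN cells under the MYCN forms. The difference between the forms was also past the threshold by the quasi-likelihood test of edgeR, adjusted by Benjamini-Hochberg. Genes picked for opposite calls against the same noMYCN libraries will nearly always differ between the forms. That difference, with all libraries or with 1 left out, is therefore no separate evidence. Further long genes, such as SLC8A1 and NAV2, had opposite fold changes but no call in MYCN3A against noMYCN cells. NTM had a log2 fold change of 0.90 in MYCNWT and -0.73 in MYCN3A cells against noMYCN cells, a difference of 1.64 (adjusted p = 9.2e-06). CDH13 had 0.58 and -0.33, a difference of 0.91 (adjusted p = 8.3e-06). ENOX1 had -0.80 and 0.63, a difference of -1.42 (adjusted p = 1e-05). The MYCNWT and MYCN3A libraries did not overlap for any of the 3, nor for 40.4% of all genes tested. The MYCN3A calls against noMYCN were lost for NTM without noMYCN replicate 3 (adjusted p = 0.0926), MYCN3A replicate 1 (0.106) or MYCN3A replicate 2 (0.0547), for ENOX1 without noMYCN replicate 2 (0.0724) or MYCN3A replicate 2 (0.0929), and for CDH13 without noMYCN replicate 1 or 2 or any MYCN3A replicate (0.076 to 0.177), whereas the difference between the forms remained past the threshold for all 3 without each library in turn.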

How the results depend on the processing

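Counts of calls held within 1.5 times under DESeq2's size factors or test, other filters, fits of only the groups compared, and, as an alternative chosen after seeing the data, long genes sharing no exon bases (53 higher and 28 lower of 209 with EXOSC10 depletion). Library totals gave 3 higher calls in MYCN 3A against no MYCN, and medians of 0.13 for EXOSC10 depletion and -0.31 for MYCN 3A. A span over 1000000 bases gave a median of 0.30 for EXOSC10 depletion and -0.0414 for wild-type MYCN, and a span over 250000 gave 0.0206 for EXOSC10 depletion. Without a filter on low counts the median between the forms was 0.11. Leaving out 1 library gave medians of 0.0869 to 0.14 for EXOSC10 depletion, with 49 to 56 higher and 31 to 33 lower calls. For wild-type MYCN it gave medians of -0.0414 to 0.11, 21 to 28 higher and 11 to 23 lower calls, for MYCN 3A medians of -0.27 to -0.12, 3 to 7 higher and 15 to 26 lower calls, and between the forms medians of 0.18 to 0.29, 29 to 46 higher and 8 to 12 lower calls. Only the wild-type MYCN median changed sign, in the settings named. Of the single genes named, 697 tests without 1 library kept their call and 101 lost it, and library totals lost 9 of 133 calls. Residuals of same-numbered libraries correlated at -0.03 to 0.14 and those of different numbers at -0.13 to 0.06. In IMR-32 each library correlated best with its own number, in SHEP not every one did, and the labels give no pairing, so the numbers were not used as pairs and a shared batch was not tested. With a replicate block the calls were 61 higher and 37 lower for EXOSC10 depletion, 29 and 22 for wild-type MYCN, 7 and 34 for MYCN 3A and 48 and 15 between the forms. With 144 of 319 long genes tested in SHEP, changes of the others were not detectable at this depth, and read ends counted singly make counting floors too low.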
